A study of Caenorhabditis elegans with 6 samples.

Results

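The superoxide dismutases, catalases and peroxiredoxins of the nematode *Caenorhabditis elegans* are described here as 10 genes, found by symbol among the 46778 genes of the table. They are *sod-1*, *sod-2*, *sod-4*, *sod-5*, *ctl-1*, *ctl-2*, *ctl-3*, *prdx-2*, *prdx-3* and *prdx-6*, and all 10 were present. RNA was sequenced in 3 libraries from control animals and 3 from animals treated with JM03, named as a derivative of crotamiton in the series title, which concerns lifespan, oxidative and hypertonic stress resistance and the channel OSM-9. Strain, stage, age, dose, length of exposure and what the controls received in place of JM03 are not stated in the labels. Values are TPM, a length-scaled share of the transcripts of a library, so levels of different genes can be set side by side. TPM keeps no read depth, and the depth behind each value is unknown. Separate cultures are not stated for the replicates, so the spread that p-values are set against may be technical.

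Superoxide is a by-product of respiration and of oxidases, and superoxide dismutases convert it to hydrogen peroxide. Catalases split hydrogen peroxide into water and oxygen, and peroxiredoxins reduce it with a cysteine thiol, which thioredoxin recycles in many but not all of them. The enzymes are divided among compartments. SOD-1 and SOD-5 are copper/zinc enzymes of the cytosol, SOD-2 is a manganese enzyme of the mitochondrial matrix, and SOD-4 is a copper/zinc enzyme that is secreted or held at the cell surface. CTL-2 is the peroxisomal catalase and CTL-1 a cytosolic one, and CTL-3 was given no compartment here. PRDX-2 is the abundant cytosolic peroxiredoxin and PRDX-3 the mitochondrial one, and PRDX-6 was placed in the cytosol after its family.

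Among the 6 libraries, control replicate 3 was unlike the rest. Over the 12912 tested genes its Spearman correlations with them were 0.784 to 0.866, against 0.901 to 0.978 between any other pair (a correlation across genes, which are not independent replicates). Ribosomal RNA took 4.37% of its TPM, against 0.338% to 0.639% elsewhere, and 78.9% of tested genes were lower in it than in the mean of control replicates 1 and 2. The median log2 fold change of JM03 over control was 0.35 over all tested genes with 6 libraries and 0.046 without it. Fold changes of the named genes that were tested are therefore given with and without it. Summed markers of sperm were at 1331 to 3208 TPM in control replicates 1 to 3, against 483 to 875 TPM in the JM03 libraries, with all 10 markers above 0 in every library. The 6 neuronal markers summed to 323, 331 and 195 TPM in control replicates 1 to 3, against 352 to 377 TPM in the JM03 libraries. For the intestine, oocyte and germ line, body wall muscle, pharyngeal muscle and epidermis the summed levels of the groups overlapped. Fewer cells of a type and less RNA per cell cannot be told apart in RNA of whole animals, and the part of tissue composition in the results was not tested.

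The order of the levels was stable across libraries at its top and varied at its lower end. *prdx-2* was the highest member, *sod-1* the second, *prdx-3* the third and *sod-2* the fourth in each of the 6 libraries, and *sod-5* was the lowest in each. By mean TPM *prdx-2* ranked 160 of the 12912 tested genes, *sod-1* 412, *prdx-3* 726 and *sod-2* 995. The ranges of *prdx-2* and *sod-1* overlapped no other member's, while those of *prdx-3* and *sod-2* overlapped each other. *prdx-6*, the 3 catalases and *sod-4* exchanged places between libraries, with overlapping ranges except between *prdx-6* and *sod-4*. Together the 10 genes summed to 1632, 1401 and 1133 TPM in control replicates 1 to 3 and to 1801, 1691 and 1874 TPM in JM03.

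**Figure D1:**
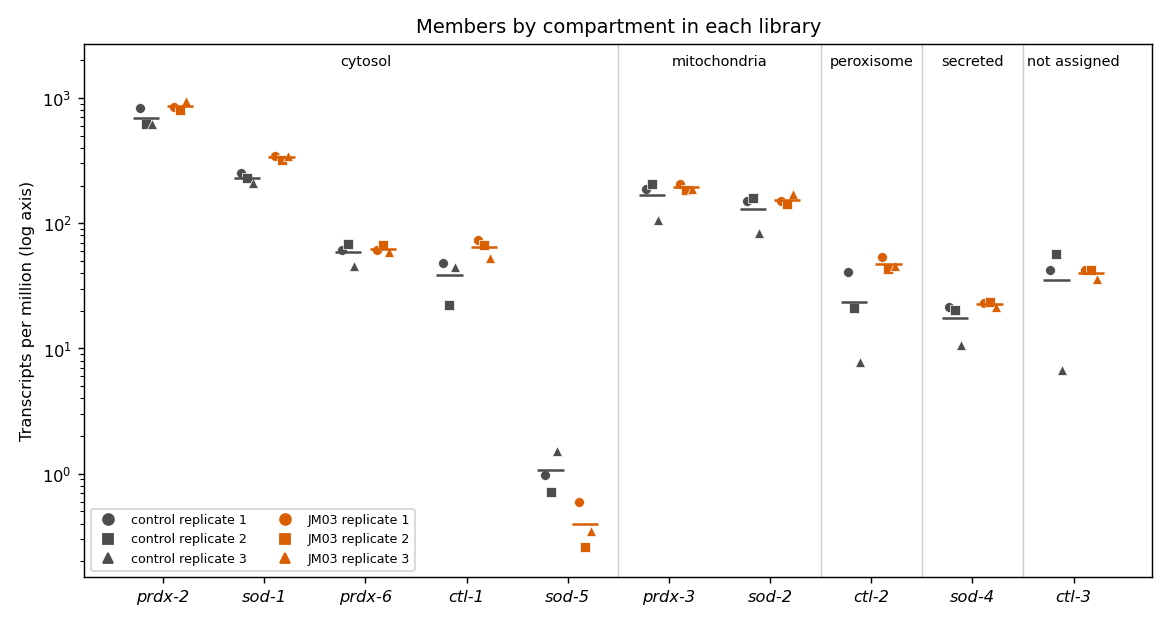
TPM of the 10 members in each library on a log axis, grouped by compartment, with control libraries in grey, JM03 libraries in orange and a line at each group's mean (n = 3). JM03 libraries lie above all controls for *sod-1*, *ctl-1* and *ctl-2* and below all controls for *sod-5*, and control replicate 3 is the lowest library for 8 of the 10 genes.

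The comparison of JM03 with control asked whether treated animals held more or less RNA for these enzymes. None of the 9 tested members passed a Benjamini-Hochberg adjusted p of 0.05 in limma, where 0.132% of all tested genes did (0.0929% higher in JM03 and 0.0387% lower). *sod-1* alone had an unadjusted limma p below 0.05, a level that 11.7% of all tested genes reached, and without control replicate 3 *sod-1* and *ctl-1* did, against 19.5%. *sod-5* was below 1 TPM in all but 1 library and was not tested. All 9 log2 fold changes were positive, as were 72.7% of those of all tested genes, but with quantile normalization that of *prdx-6* was negative and 57.2% of all tested genes were positive. The members' median of 0.42 lay 0.066 above that of all tested genes. With control replicate 3 left out, 5 of the 9 were positive, against 56.5% of all tested genes, and the median of 0.12 lay 0.072 above that of all tested genes. In *sod-1*, *ctl-1* and *ctl-2* every JM03 value lay above every control value, which makes 3 of 9, while 21.9% of all tested genes showed this. These 3 genes also showed it without control replicate 3, where 23.7% of all tested genes did. No tested member lay wholly below the controls, an order seen in 9.41% of all tested genes with 6 libraries and 18.5% without that library.

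Among the cytosolic enzymes, *sod-1* differed between the groups by more than its spread within either. The gene (WBGene00004930, II:6972706-6973887 in WBcel235, minus strand) encodes the main copper/zinc superoxide dismutase. It was at 250.5, 229 and 209 TPM in control replicates 1 to 3 and at 346, 322 and 347 TPM in JM03. All JM03 libraries were above all controls, as in 21.9% of all tested genes. The gap between the groups was wider than the range of either, and how many other genes had such a gap was not counted. Means were 338 ± 14.2 TPM in JM03 and 230 ± 20.5 TPM in control (SD, n = 3 each), a ratio of 1.47. The log2 fold change on log2(TPM + 1) was 0.56 ± 0.194 (SE; 95% interval 0.10 to 1.02) and was not called (limma adjusted p = 0.345). Without control replicate 3 it was 0.50 ± 0.0847 (95% interval 0.28 to 0.71; limma adjusted p = 0.233). With and without that library, the values of *sod-1* lay 0.21 and 0.45 above the median of all tested genes. With array quality weights, which gave control replicate 3 a weight of 0.0304 and JM03 replicate 1 a weight of 6.46, *sod-1* was called (log2 fold change 0.54, limma adjusted p = 0.0239). That fit called 17.1% of all tested genes, against 0.132% in the unweighted fit, and 6.62% as higher in JM03. The end of *sod-1* overlaps the short non-coding gene C15F1.13 on the opposite strand, which was listed at 31.8 TPM in control replicate 3 and at 0 in the other 5 libraries. The use of strand in counting is not stated, so the reads of such overlapping partners may be mixed.

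*sod-5* (WBGene00007036, II:4417633-4419130, plus strand), the other cytosolic copper/zinc enzyme, was near the lower end of detection. Its TPM was 0.98, 0.72 and 1.53 in control replicates 1 to 3, against 0.59, 0.26 and 0.35 in the JM03 libraries. It was the member whose JM03 values all lay below the controls, and the control with the highest value was replicate 3. Of the 20614 genes above 0 in at least 1 library, 6.71% showed that order. With no filter on low values its log2 fold change was -0.56 ± 0.207 (SE) and was not called (limma adjusted p = 0.527). The ratio of *sod-1* to *sod-5* TPM within a library ran from 137 to 1238.

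The cytosolic catalase gene *ctl-1* (WBGene00000830, II:14303568-14306260, minus strand) was at 48.5, 22.2 and 44.7 TPM in control replicates 1 to 3, against 72.9, 67.2 and 52.8 TPM in the JM03 libraries. The groups did not overlap, and the lowest control here was replicate 2, not replicate 3. Its log2 fold change was 0.79 ± 0.383 (SE; 95% interval -0.12 to 1.70; limma adjusted p = 0.468) with 6 libraries and 0.93 ± 0.341 without control replicate 3 (limma adjusted p = 0.241). These values lay 0.44 and 0.89 above the median of all tested genes. Without control replicate 2 the log2 fold change was 0.44 (limma adjusted p = 0.413), so that 1 library moved the value by more than 1.5 times. Array quality weights called *ctl-1* (1.26, limma adjusted p = 0.0271). Among the controls they gave the largest weight to replicate 2, the lowest library for *ctl-1*. That weight was 2.19, against 0.846 for replicate 1 and 0.0304 for replicate 3. The largest weight of all, 6.46, went to JM03 replicate 1, the highest library for *ctl-1*.

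Both cytosolic peroxiredoxin genes had overlapping groups. *prdx-2* (WBGene00006434, II:5378195-5379631, plus strand) was at 827, 616.1 and 615.5 TPM in control replicates 1 to 3, against 843, 798 and 955 TPM in the JM03 libraries. Control replicate 1 lay above JM03 replicate 2, and the log2 fold change of 0.34 ± 0.195 (SE; 95% interval -0.12 to 0.81) lay at -0.0061 relative to the median of all tested genes (limma adjusted p = 0.488). Without control replicate 3 the log2 fold change was 0.27 ± 0.156 (limma adjusted p = 0.352), which lay 0.23 above that median, and with array quality weights it was 0.35, which lay 0.29 above it (limma adjusted p = 0.0862). *prdx-6* (WBGene00021401, IV:218552-220855, plus strand) was at 60.7, 68.9 and 45.7 TPM in control replicates 1 to 3, against 61.3, 67.5 and 58.5 TPM in the JM03 libraries. Its log2 fold change was 0.11 ± 0.284 with 6 libraries (limma adjusted p = 0.800) and -0.052 ± 0.097 without control replicate 3 (95% interval -0.30 to 0.19; limma adjusted p = 0.758). That interval bounds a change in the 5 libraries and does not show that the level was the same.

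In absolute size, the mitochondrial pair had the smallest log2 fold changes of the 9 tested members once control replicate 3 was left out. That of the cytosolic *prdx-6* was next (-0.052 ± 0.097), and with 6 libraries it was the smallest (0.11 ± 0.284). *sod-2* (WBGene00004931, I:8434550-8435807, plus strand), the main mitochondrial superoxide dismutase gene, was at 150.1, 159 and 83.7 TPM in control replicates 1 to 3, against 150.3, 143 and 170.1 TPM in the JM03 libraries. *prdx-3* (WBGene00011110, III:4407444-4408437, plus strand), the mitochondrial peroxiredoxin gene, was at 189, 206 and 107 TPM in control replicates 1 to 3, against 207, 185 and 188 TPM in the JM03 libraries. In both genes the other 5 libraries lay close together and control replicate 3 lay below them, at 54.1% of the mean of the other controls in each. The log2 fold changes of *sod-2* and *prdx-3* were 0.29 ± 0.310 and 0.26 ± 0.302 with 6 libraries (limma adjusted p = 0.566 and 0.587). With 5 libraries the value for *sod-2* was -0.0053 ± 0.0981 (95% interval -0.25 to 0.24; limma adjusted p = 0.978). For *prdx-3* it was -0.032 ± 0.0886 (95% interval -0.26 to 0.19; limma adjusted p = 0.844). The ratio of *prdx-3* to *sod-2* TPM was 1.26, 1.29 and 1.27 in control replicates 1 to 3, against 1.38, 1.29 and 1.10 in the JM03 libraries, so the pair kept its proportion in control replicate 3 as well. *sod-2* lies wholly within the span of *dpt-1* (I:8429926-8435865) on the opposite strand and shares exon sequence with it. *dpt-1* was at 24.9 TPM in control replicate 3 and 59 to 72.7 TPM in the other libraries.

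The ratio of cytosolic *sod-1* to mitochondrial *sod-2* was 1.67, 1.44 and 2.50 in control replicates 1 to 3 and 2.30, 2.25 and 2.04 in JM03. Control replicate 3 lay above all JM03 libraries and the other controls lay below them, so the groups overlapped with 6 libraries and did not with 5. The share of *sod-1* in the TPM of the 4 superoxide dismutase genes showed the same order of libraries, at 59.2%, 56.0% and 68.6% in control replicates 1 to 3, against 66.5%, 65.9% and 64.4% in the JM03 libraries.

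The peroxisomal catalase gene *ctl-2* (WBGene00000831, II:14299556-14302027, minus strand) had the largest log2 fold change of the 9 tested members with 6 libraries. It was at 41.1, 21.1 and 7.76 TPM in control replicates 1 to 3, against 53.5, 43.1 and 45.4 TPM in the JM03 libraries. All JM03 values lay above all controls, but the controls ranged more widely than the distance from control replicate 1 to the JM03 libraries. Its log2 fold change was 1.26 ± 0.576 (SE; 95% interval -0.11 to 2.62; limma adjusted p = 0.455). Without control replicate 3 it was 0.66 ± 0.284, a move of more than 1.5 times, and *ctl-1* then had the larger value (limma adjusted p = 0.273 for *ctl-2*). With and without that library, the values of *ctl-2* lay 0.91 and 0.61 above the median of all tested genes. Array quality weights called *ctl-2* (0.97, limma adjusted p = 0.0314). The 7 intestine markers, which include *elt-2* and *vha-6*, summed to 175, 80.3 and 36.7 TPM in control replicates 1 to 3, and to 206, 150.2 and 192 TPM in JM03. In the controls the order from replicate 1 down to replicate 3, which *ctl-2* had, was also that of the summed markers of the intestine, of oocyte and germ line, of body wall muscle and of pharyngeal muscle. The part of these tissues in the difference was not tested. *ctl-2* overlaps Y54G11A.7 on the opposite strand at its end, which was at 5.59 TPM in control replicate 3 and 12.2 to 14.8 TPM elsewhere.

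*ctl-3* (WBGene00013220, II:14307798-14310779, minus strand), a catalase gene next to *ctl-1*, was at 42.1, 57.1 and 6.71 TPM in control replicates 1 to 3, against 42.5, 42.4 and 36.0 TPM in the JM03 libraries. Its direction depended on a single library. The log2 fold change was 0.62 ± 0.747 with 6 libraries and -0.28 ± 0.156 without control replicate 3 (limma adjusted p = 0.602 and 0.342). In control replicate 2, *ctl-3* was higher than in any other library, while *ctl-1* was at its lowest.

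The 3 catalase genes lie in tandem on chromosome II, on the same strand and with gaps of 1540 and 1537 bases, in the order *ctl-2*, *ctl-1*, *ctl-3*. Tandem copies of a gene may share reads in counting. Whether these did was not tested, so the sum is given beside the single values. It was 132, 100.5 and 59.2 TPM in control replicates 1 to 3, against 169, 153 and 134 TPM in the JM03 libraries. All JM03 sums were above all controls, with control replicate 1 less than 3 TPM below JM03 replicate 3. Of all tested genes taken singly, 21.9% showed that order. The division among the 3 genes varied more between the controls than between the JM03 libraries. *ctl-1* held 36.8%, 22.1% and 75.5% of the catalase TPM in control replicates 1 to 3 and 43.2%, 44.0% and 39.3% in JM03. The share of *ctl-3* was 32.0%, 56.9% and 11.3% in control replicates 1 to 3, against 25.2%, 27.8% and 26.9% in the JM03 libraries. Shares of the peroxiredoxins varied less, with *prdx-2* at 69.2% to 80.1% of the family in all 6 libraries.

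**Figure D2:**
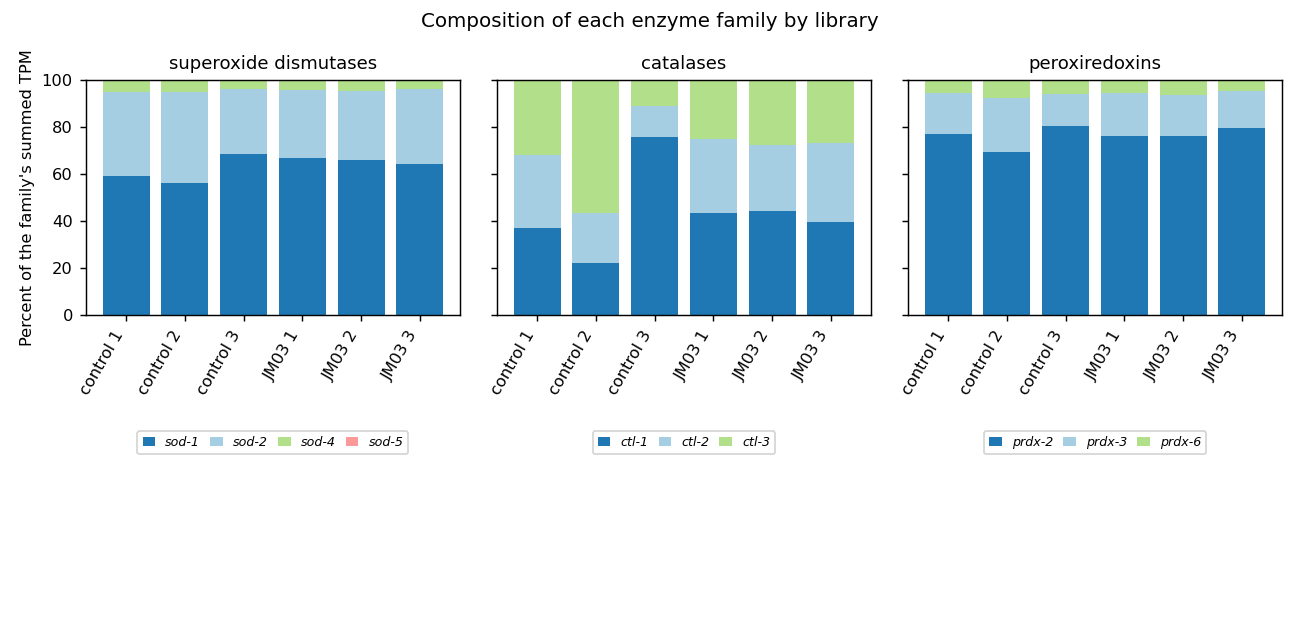
Percent of each family's summed TPM held by its members in the 6 libraries, as stacked bars that add to 100. In the catalase bars *ctl-1* ranges from 22.1% to 75.5% in the controls and from 39.3% to 44.0% in the JM03 libraries, and *sod-5* is too low to be seen.

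The secreted enzyme's gene *sod-4* (WBGene00004933, III:9496884-9500375, minus strand) was at 21.6, 20.1 and 10.8 TPM in control replicates 1 to 3, against 23.2, 23.5 and 21.5 TPM in the JM03 libraries. JM03 replicate 3 fell just below control replicate 1, so the groups overlapped. Its log2 fold change was 0.42 ± 0.358 (SE; 95% interval -0.43 to 1.26; limma adjusted p = 0.508) with 6 libraries and 0.12 ± 0.104 without control replicate 3 (limma adjusted p = 0.511). Its end overlaps *ctr-9* on the opposite strand, which was at 42.1 TPM in control replicate 3 and 58 to 80.2 TPM elsewhere.

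**Figure D3:**
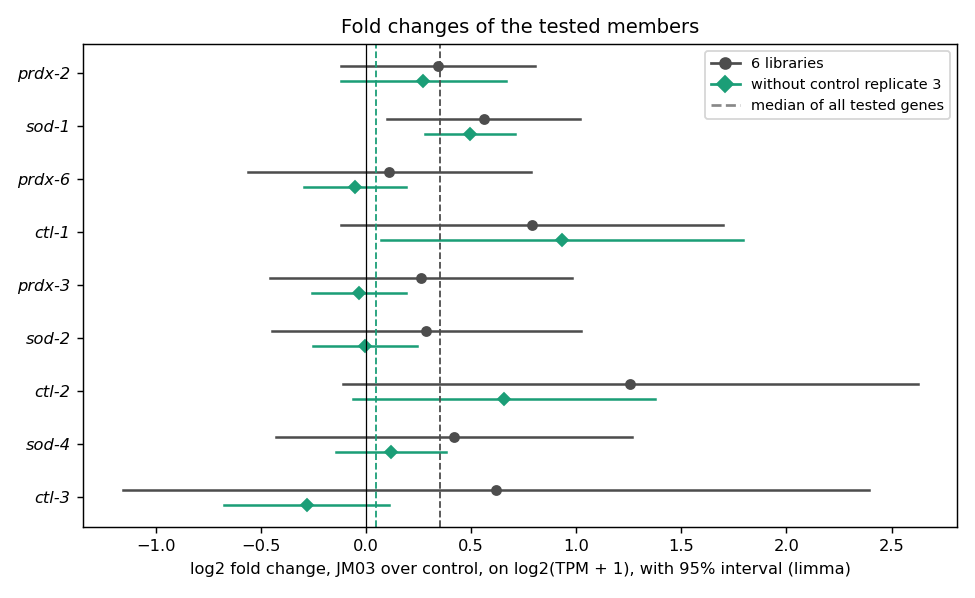
Log2 fold change of JM03 over control on log2(TPM + 1) with its 95% limma interval for the 9 tested members, from 6 libraries (circles) and without control replicate 3 (diamonds), with dashed lines at the medians of all tested genes (0.35 and 0.046). The intervals are narrower without that library for the 9 genes, and *ctl-3*, *sod-2*, *prdx-3* and *prdx-6* change sign.

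Set together by compartment, the cytosolic genes summed to 1188, 937 and 917 TPM in control replicates 1 to 3, against 1324, 1255 and 1413 TPM in the JM03 libraries. All JM03 sums lay above all controls, and *prdx-2* made up most of each sum. Of all tested genes taken singly, 21.9% showed that order, and their median log2 fold change was 0.35. The mitochondrial pair summed to 339, 365 and 190.4 TPM in control replicates 1 to 3, against 357, 328 and 358 TPM in the JM03 libraries, with overlapping groups. As shares of the 10 genes, the cytosol took 72.8%, 66.9% and 81.0% in control replicates 1 to 3 and 73.5%, 74.2% and 75.4% in JM03. Mitochondrial shares were 20.8%, 26.1% and 16.8% in control replicates 1 to 3, against 19.8%, 19.4% and 19.1% in the JM03 libraries. With 6 libraries both shares overlapped between the groups. With control replicate 3 left out the cytosolic share was higher and the mitochondrial share lower in every JM03 library, by 0.73 and 0.93 percentage points at the nearest pair. Both are parts of the same total, so they are not independent of each other. The peroxisomal *ctl-2* took 0.685% to 2.52% in the controls and 2.42% to 2.97% in JM03. For the secreted *sod-4* the shares were 0.95% to 1.44% and 1.15% to 1.39%. The unassigned *ctl-3* took 2.58%, 4.08% and 0.592% in control replicates 1 to 3, against 2.36%, 2.51% and 1.92% in the JM03 libraries. Without control replicate 3 its share was also lower in every JM03 library.

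The members stood at unequal levels in control replicate 3. Relative to the mean of control replicates 1 and 2, it held 87.4% of *sod-1*, 85.3% of *prdx-2*, 70.6% of *prdx-6* and 51.6% of *sod-4*. *ctl-2* and *ctl-3* were at 25.0% and 13.5%, whereas *ctl-1* was at 126% and the low *sod-5* at 180%. The annotated exon lengths were 1554 to 1631 nt for the catalases, 1306 nt for *sod-4* and 706 to 802 nt for the other members. A link of these levels with length was not tested. On the log2(TPM + 1) scale the median difference of control replicate 3 from the other controls was -0.88 over the 9 tested members and -0.77 over all tested genes.

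**Figure D4:**
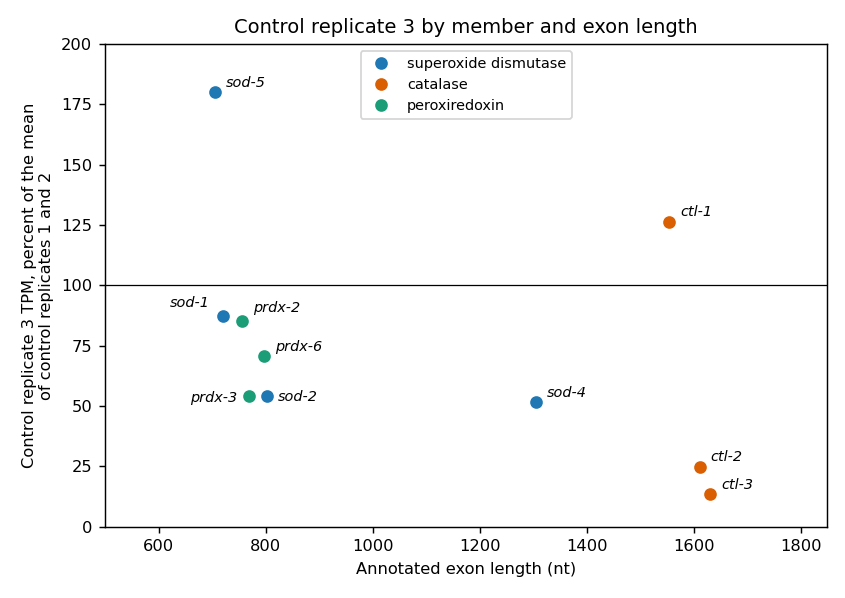
TPM of each member in control replicate 3 as a percent of the mean of control replicates 1 and 2, against annotated exon length in nt, coloured by family, with a line at 100%. *ctl-2* and *ctl-3* lie lowest at 25.0% and 13.5%, and *ctl-1* lies at 126%.

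The wider peroxide and thiol system was read from a list of 33 other redox genes, of which 29 were tested. None was called with limma over all genes (0.132% of all tested genes were), and 4 of the 29 had an unadjusted limma p below 0.05, against 11.7% of all tested genes. Of the 29, 22 had a positive log2 fold change, or 75.9% against 72.7% of all tested genes, and 16 did with quantile normalization, or 55.2% against 57.2%. Their median log2 fold change of 0.36 was 0.0095 above that of all tested genes. With control replicate 3 left out, 16 were positive and 4 had an unadjusted limma p below 0.05, against 19.5% of all tested genes. JM03 values lay above all controls in 7 of the 29, or 24.1%, against 21.9% of all tested genes, and below all controls in none (9.41%). Without control replicate 3 these counts were 7 and 2, against 23.7% and 18.5% of all tested genes.

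The inducible mitochondrial manganese superoxide dismutase gene *sod-3* was low, at 2.10, 0.90 and 1.02 TPM in control replicates 1 to 3, against 2.49, 1.41 and 3.64 TPM in the JM03 libraries. Its groups overlapped (log2 fold change 0.57 ± 0.333 SE, limma adjusted p = 0.490), and without control replicate 3 the log2 fold change was 0.48 ± 0.363 (limma adjusted p = 0.451). *trxr-1*, which encodes the cytosolic thioredoxin reductase, was at 67.6, 83.0 and 13.1 TPM in control replicates 1 to 3, against 61.0, 69.8 and 60.8 TPM in the JM03 libraries. Its log2 fold change turned from 0.58 to -0.23 without control replicate 3 (limma adjusted p = 0.589 and 0.320). The mitochondrial thioredoxin gene *trx-2*, whose mammalian counterpart recycles the mitochondrial peroxiredoxin, went the other way in control replicate 3. It was at 127, 139.9 and 191 TPM in control replicates 1 to 3, against 126, 128 and 120.2 TPM in the JM03 libraries (log2 fold change -0.27 ± 0.250, limma adjusted p = 0.525). With 5 libraries its log2 fold change was -0.098 ± 0.0759 (limma adjusted p = 0.464).

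The glutathione reductase gene *gsr-1* had a log2 fold change of 0.36 ± 0.302 and the methionine sulfoxide reductase gene *msra-1* one of 0.40 ± 0.362 (limma adjusted p = 0.505 and 0.521). Without control replicate 3 these were 0.11 ± 0.0812 and 0.19 ± 0.270 (limma adjusted p = 0.447 and 0.683). The glutathione peroxidase gene *gpx-8* was at 2.15, 3.11 and 0.68 TPM in control replicates 1 to 3, against 1.51, 1.84 and 1.19 TPM in the JM03 libraries. Control replicate 3 was its lowest library, and the other controls lay above all JM03 libraries. Its log2 fold change was -0.16 ± 0.360 with 6 libraries and -0.53 ± 0.212 without control replicate 3 (limma adjusted p = 0.774 and 0.260). *prx-5*, which encodes the receptor that imports proteins into peroxisomes, was at 3.13, 3.35 and 0.57 TPM in control replicates 1 to 3, against 4.45, 4.62 and 4.09 TPM in the JM03 libraries. Its groups did not overlap, with a log2 fold change of 0.82 ± 0.429 with 6 libraries and 0.34 ± 0.163 without control replicate 3 (limma adjusted p = 0.474 and 0.299). With array quality weights 3 of the 29 were called, all higher in JM03, where 6.62% of all tested genes were called higher. They were the peroxidase genes *skpo-1* and *mlt-7* and the glutathione peroxidase gene *gpx-5* (limma adjusted p = 0.0249, 0.0332 and 0.0361), named after their values were seen. Their log2 fold changes were 0.71, 0.94 and 0.95 with 6 libraries unweighted and 0.59, 0.61 and 0.68 without control replicate 3, where none was called (limma adjusted p = 0.233, 0.237 and 0.263). Among these 3, *skpo-1* was the most abundant, at 149.5, 102 and 96.5 TPM in control replicates 1 to 3, against 201, 170.2 and 190 TPM in the JM03 libraries.

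**Figure D5:**
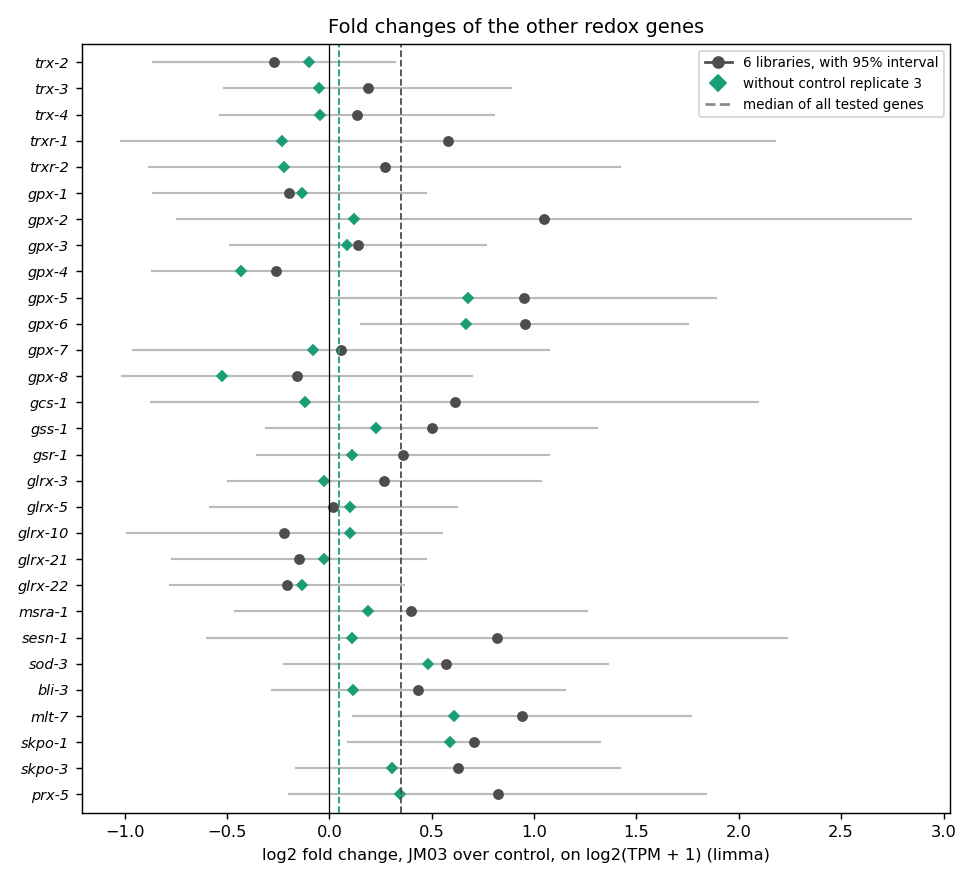
Log2 fold change of JM03 over control on log2(TPM + 1) for the 29 tested other redox genes, from 6 libraries (circles, with the 95% limma interval) and without control replicate 3 (diamonds), with dashed lines at the medians of all tested genes. The points lie on both sides of the median in each case, with 22 positive from 6 libraries (16 with quantile normalization) and 16 without control replicate 3.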

How the data were processed

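The authors deposited 1 table of TPM values, at 2 decimals, for 46778 genes in 6 libraries. No label names the unit, which was read from the column sums of 997816 to 998884. The submitters' processing notes name fastp, HISAT, RSEM and the build WBcel235. Tool versions, settings and strand use were not given in the sources used here. Date-like symbols (11) and missing ones (210) were replaced by the reference symbol of the gene ID. Coordinates and exon lengths came from Ensembl release 115 on WBcel235.

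The 12912 genes that reached 1 TPM in 3 or more libraries were tested on log2(TPM + 1) with limma 3.58.1 in R 4.3.3 (trended, robust prior, two-sided, no pairing). Benjamini-Hochberg adjustment ran over all tested genes, and calls were made at 0.05. Fold changes on this scale understate the change of low genes. The step was tested on simulated data. These held independent noise for each gene and no shift of a whole library, so they do not test the fit under one like that of control replicate 3. Compartment sums were described without a test. Figures used matplotlib 3.10.9. Alternatives were quantile normalization with and without control replicate 3, no filter, a filter at 5 TPM, a pseudocount of 0.1, a non-robust prior, array quality weights, leaving out each library in turn and a block for the replicate number.

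The members, lists and alternatives were chosen with earlier results of these data known. The text names all 10 members and, of the other redox genes, *sod-3*, *trxr-1*, *gsr-1*, *trx-2*, *msra-1*, *gpx-8*, *prx-5* and any called.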

Additional observations from a re-analysis of the deposited data

How the results depend on the processing

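No tested member was called except under array quality weights, which called 3 members, 3 other redox genes and 2202 genes in all. The log2 fold changes of *sod-1*, *sod-4*, *ctl-1*, *ctl-2* and *prdx-2* were positive under all 14 alternatives, and for *sod-1* they ran from 0.40 to 0.62. The other 4 changed sign, and with 1 library left out the highest values of *sod-2*, *ctl-3*, *prdx-3* and *prdx-6* were 0.45, 1.18, 0.44 and 0.24. The lowest came without control replicate 3, where they were -0.0053, -0.28, -0.032 and -0.052. With quantile normalization besides they were -0.061, -0.30, -0.081 and -0.082, and with array quality weights -0.033, -0.31, -0.00032 and -0.098. That of *prdx-6* was -0.20 with quantile normalization of 6 libraries. The members' median relative to all genes was 0.284 with no filter on low values, 0.00503 at 5 TPM, 0.00997 with a pseudocount of 0.1 and 0.107 with array quality weights, and 0.00735 to 0.106 with a library left out. Calls over all genes numbered 17, and 5 to 17 with a library left out. With the replicate number as a block there were 0 calls, with 1600 genes at an unadjusted limma p below 0.05 against 1517 without the block. Deviations from the group mean had correlations of -0.0203, 0.0795 and -0.146 between same-numbered libraries, and of -0.278 to 0.291 between differently numbered ones. With 3 libraries per group these values cannot decide whether same-numbered libraries were paired, and the labels state no pairing. The cause of these shifts was not tested. TPM gives no depth, so values near that of *sod-5* have no counting interval.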
